A study of Mus musculus with 8 samples.

Results

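Genes listed with coordinates of mapped copies, called multi-copy genes here, were examined in mouse brain RNA. They are the rows of the authors' deposited table whose names carry, beside a transcript accession, the coordinates of a mapped copy. Of 15978 rows, 53 carried such coordinates, and 48 were kept after 5 histone genes had been left out. By the reference annotation, 38 of the 48 are protein-coding genes, 8 are transcribed pseudogenes, 1 is a long noncoding RNA gene and 1, Rn4.5s, is labelled as a ribosomal RNA gene. The rule reads row names and no measured value, although it was proposed with earlier results of these data known. Shared transcript sequence is not high in every gene. In Rims1, Gm14391 and Gm3448 at most 8.44% of the longest transcript, cut into stretches of 50 bases, also occurs in the longest transcript of another gene. Gm3448 still has a further written copy, at the gene Tcte3.

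Brains of 5 male C9-BAC mice on an SJL/Bl6 background were compared with those of 3 male wild-type mice of that background. C9-BAC mice carry a bacterial artificial chromosome, a large piece of cloned DNA, with the human C9ORF72 gene and 500 repeats of the sequence G4C2. Long expansions of this repeat occur in inherited amyotrophic lateral sclerosis and frontotemporal dementia. Total RNA was taken from brain with Trizol and made into strand-specific libraries without selection for poly(A) tails, per the labels' protocols. The labels give neither the age of the mice nor the brain region, and each sample was taken as 1 mouse.

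Each gene has 1 value for the comparison of both genotypes, so no value of a single mouse and no spread between mice could be shown. The mean normalized count is an average over all 8 mice. The log2 fold change is called LFC below, and its deposited standard error SE. Over all rows in the authors' deposited table the LFC ran from -0.32 to 0.35, and the largest SE was 0.11. Whether the fitting made fold changes smaller is not stated in these sources and was not tested. The median SE was 0.05 at means under 10 and 0.11 at means from 50 to 200. Sizes of LFCs may thus not be comparable between genes of unlike mean. Each ratio below is the deposited LFC taken off the log scale, and may differ from the ratio of the measured means. Which genotype is its numerator is not stated, so each sign is the one in the table and says nothing about which genotype was higher. In bulk tissue, fewer cells of a type and less RNA per cell cannot be told apart. Brain cell markers were present in the authors' deposited table: 6 of 6 neuronal genes had mean normalized counts from 1588 to 13868, 4 of 4 astrocyte genes from 1072 to 45839 and 4 of 4 oligodendrocyte genes from 92.7 to 9162. Microglial genes (4 of 4) ranged from 208 to 921 and endothelial genes (3 of 3) from 192 to 394 in the authors' deposited table, while 3 of 4 germ line genes lay between 4.06 and 34.2. Of 3 lymphoid genes, Ptprc, which microglia also express, was used here, with a mean of 48.0 normalized counts in the authors' deposited table.

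Multi-copy genes arise where a stretch of DNA is duplicated beside itself or where a spliced RNA is copied back into the genome. In mouse, tandem duplication has expanded chemokine genes on chromosome 4 and zinc finger genes in several clusters, and the number of copies in such regions can differ between inbred strains. A short read from near-identical copies fits each of them, so its assignment depends on the counting. How the authors' counting treated such reads remains unstated in these sources, and the values of genes with much shared sequence are uncertain for that reason.

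The 48 row names list 71 copies. In 37 rows 1 copy is written, 11 rows have more, and Rn4.5s has the most with 9. With bounds that match at 90% reciprocal overlap, 21 copies lie at the reference gene of the same symbol, 15 at another reference gene only and 35 at neither. Some of the 35, as in Rims1, lie within the bounds of the gene itself. The only copy written for Gm14391, Eno1b and Ubb-ps is at the gene of that symbol. A written copy is thus not always a second one. Joined at distances of up to 1 Mb, 34 genes fell into 9 blocks and 14 stood alone. To measure the similarity directly, each gene's longest transcript was cut into all stretches of 50 bases, and the share found in the longest transcript of another gene was counted. In the 45 genes with a transcript, the median share was 94.1%; 41 exceeded 50% and 13 reached 100%. Over the 15869 rows with a transcript, 428 exceeded 50% and 26 reached 100%.

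None of the 46 multi-copy genes with a p-value had an adjusted p of 0.05 or less in the authors' deposited table, where the share over all rows was 0% (0 of 15944, DESeq2 Wald test). At an unadjusted p under 0.05, 4 genes were called in the authors' deposited table, against 1.50% of all rows (239 of 15944). These were 4933409K07Rik and Fam205a2, with positive fold changes, and Plac9b and Gm14440, with negative ones; all 4 had an adjusted p of 0.9997 in the authors' deposited table. At p under 0.01, 2 genes remained, 4933409K07Rik and Fam205a2, against 0.157% of all rows. The threshold of 0.05 called 0.659% of all rows with a positive sign and 0.840% with a negative one. In the authors' deposited table the median LFC of the 48 genes was -0.02, against -0.004 over all rows, and 19 were positive (39.6%), against 47.4% of all rows. Values differed by location: all 6 genes of a chromosome 4 block were positive, with a median of 0.14 in the authors' deposited table, whereas 13 of the other 42 were positive, with a median of -0.04.

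**Figure D1:**
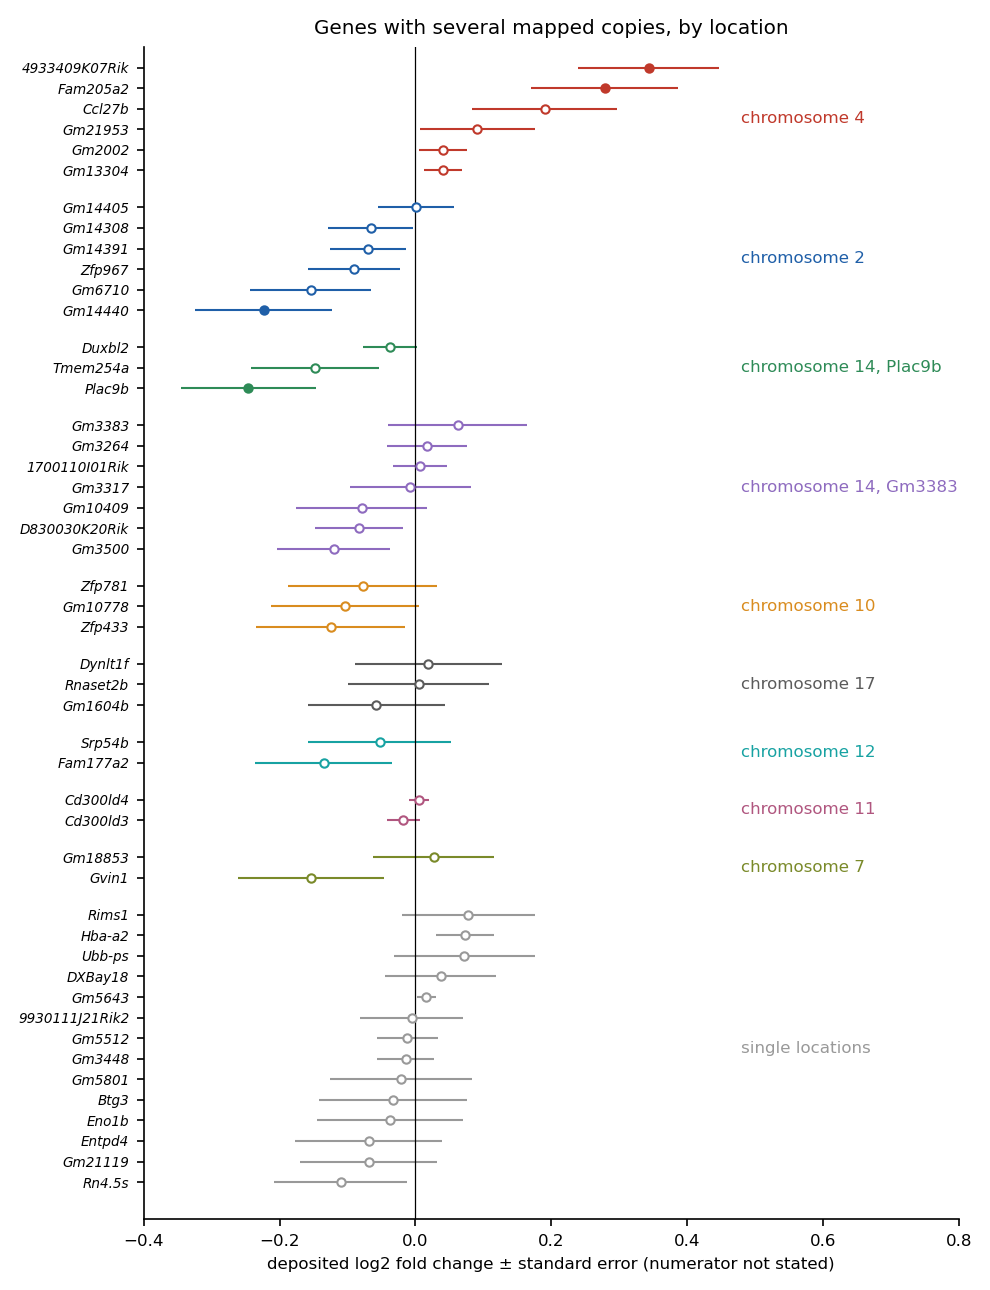
Deposited LFC of each of the 48 multi-copy genes (x axis, log2 scale; points) with its deposited standard error (bars), grouped by location of the copies; filled points have an unadjusted p under 0.05. The 6 chromosome 4 genes lie right of 0, between 0.04 and 0.34, and 4933409K07Rik, Fam205a2, Plac9b and Gm14440 are the filled points.

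The chromosome 4 block spans 0.634 Mb, from 42031296 to 42665763 (mm10), with 10 written copies. It holds duplicated relatives of chemokine genes, which encode small secreted proteins that attract leukocytes, and of an interleukin 11 receptor gene. The transcribed pseudogene 4933409K07Rik led it, with a copy at chr4:42031296-42055130. It had a mean normalized count of 733.9 and an LFC of 0.34 (SE 0.10, p = 0.000907) in the authors' deposited table, a ratio of 1.27. Of the 15944 rows with a p-value in the authors' deposited table, only 4 had a smaller p, and its fold change was the second of all in the positive direction. RefSeq puts this gene and Gm2002 on chromosome 4 sequence that is not located along the chromosome, so the written copies are their only positions here.

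Fam205a2, a protein-coding gene, has copies at chr4:42318272-42324070 and chr4:42522439-42528237. Its mean normalized count was 146 and its LFC 0.28 with an SE of 0.11 in the authors' deposited table (p = 0.00989), a ratio of 1.21. All of its 50-base stretches occur in Fam205a3 and in Fam205a4, and 70.2% in Fam205a1, so a 50-base read from this transcript fits several genes. The likeness is shown by the 80 bases before the start sites of Fam205a2 (chr4:42528238-42528317, minus strand) and Fam205a1 (chr4:42853889-42853968, minus strand), from RefSeq on GRCm38.p6, with the differing base in capitals.
Fam205a2: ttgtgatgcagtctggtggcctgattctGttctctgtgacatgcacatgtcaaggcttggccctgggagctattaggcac
Fam205a1: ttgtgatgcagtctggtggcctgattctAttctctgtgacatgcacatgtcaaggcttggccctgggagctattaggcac
These windows differ at 1 of 80 positions, and that of Fam205a2 lies within the RefSeq bounds of the gene. Over 300 aligned bases around the start sites, without gaps, identity was 79.7%.

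Ccl27b, by its name, and Gm21953, by 64.7% of shared 50-base stretches, are relatives of Ccl27a, whose chemokine is made in skin and acts on the receptor Ccr10. Ccl27b, with its copy at chr4:42650604-42656005, had a mean normalized count of 78.1 and an LFC of 0.19 (SE 0.11, p = 0.0758) in the authors' deposited table. Gm21953, written at chr4:42293864-42294898 and chr4:42438975-42440009, had a mean normalized count of 12.2 and an LFC of 0.09 (SE 0.08, p = 0.281) in the authors' deposited table. Ccl27a itself was not among the multi-copy rows; it stood at 397.6, with an LFC of 0.13 (SE 0.09, p = 0.180) in the authors' deposited table. These 3 rows share one sign, and none passed at 0.05. Stretches before a start site were compared between the copies: Ccl27b at chr4:42650524-42650603 (plus strand), Gm21953 at chr4:42293771-42293850 (plus strand), Gm13306 at chr4:42153365-42153444 (plus strand) and Ccl27a at chr4:41774198-41774277 (minus strand), from RefSeq on GRCm38.p6, with differing bases in capitals.
Ccl27b: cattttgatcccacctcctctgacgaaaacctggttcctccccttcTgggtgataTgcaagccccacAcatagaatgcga
Gm21953: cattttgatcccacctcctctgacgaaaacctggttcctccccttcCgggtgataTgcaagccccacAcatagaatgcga
Gm13306: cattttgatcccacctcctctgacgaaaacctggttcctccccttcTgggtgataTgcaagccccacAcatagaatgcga
Ccl27a: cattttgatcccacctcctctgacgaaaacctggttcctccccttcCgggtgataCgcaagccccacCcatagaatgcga
The 80-base windows differ at 3 columns. The Ccl27b window lies in part within the RefSeq bounds of Ccl27b. The Ccl27a window ends 96 bases before the RefSeq start site used and lies in part within the bounds of that gene; over all 204 aligned bases, without gaps, Ccl27b and Ccl27a were 80.4% identical, with 40 differing bases. Ccl27b and Gm13306 have the same letters over all 300 bases of their RefSeq records, and Gm13306 shares 69.1% of the 50-base stretches of Ccl27b.

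Gm13304 is a copy related to Ccl21a, which encodes a chemokine that guides cells with the receptor Ccr7 to lymph nodes. It is written at 3 places (chr4:42114787-42115917, chr4:42255695-42256825 and chr4:42612123-42613253), and 73.5% of its 50-base stretches occur in Ccl21a. Its 80 bases before the start site (chr4:42114706-42114785, plus strand) are letter for letter those of Ccl21a (chr4:42773992-42774071, minus strand), from RefSeq on GRCm38.p6, and are shown once.
Gm13304: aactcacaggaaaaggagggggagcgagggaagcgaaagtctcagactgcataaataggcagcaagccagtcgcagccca
In the authors' deposited table Gm13304 had a mean normalized count of 59.2 and an LFC of 0.04 (SE 0.03, p = 0.150). That standard error was below those of all 500 rows nearest to it in mean normalized count in the authors' deposited table. Gm2002, whose copy at chr4:42655275-42665763 has the bounds of the interleukin 11 receptor gene Il11ra2, was near the lowest counts of the table, at 1.58, with an LFC of 0.04 (SE 0.04, p = 0.245) in the authors' deposited table.

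Rows around the block were compared with it. Within 1.35 Mb of its centre, 39 neighbouring rows had a median LFC of 0.04 in the authors' deposited table, and 29 of them were positive. Of the 33 neighbours with under 10% of shared 50-base stretches, 24 were positive in the authors' deposited table, with a median of 0.04 and 1 p under 0.05. One neighbour lies inside the block: Gm3893, a transcribed pseudogene at chr4:42089373-42092930 that shares 97.7% of its stretches with other genes, had a mean normalized count of 640.6 and an LFC of 0.10 (SE 0.05, p = 0.0481) in the authors' deposited table. Transcript GC content moves with the sign over the whole table: 61.3% of rows with 50% GC or more were positive in the authors' deposited table, with a median of 0.02, against 21.8% of rows under 42% GC, with a median of -0.05. The 4 chromosome 4 genes with a transcript had a median GC content of 55.2%, and all 4 kept a positive statistic once the trend with GC content had been taken off. The mouse gene C9orf72 is on the same chromosome, 6.81 Mb away at chr4:35191285-35226153, and had a mean normalized count of 311.2 and an LFC of -0.08 (SE 0.10, p = 0.454) in the authors' deposited table.

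**Figure D2:**
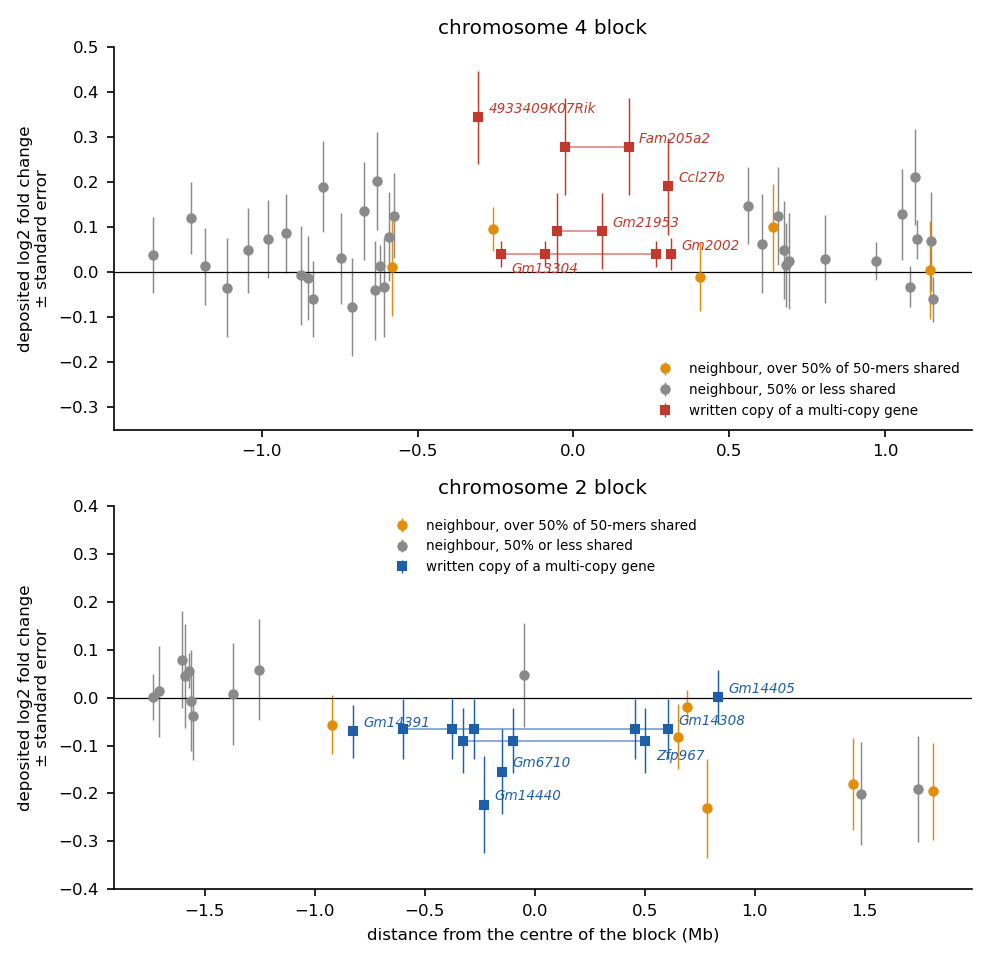
Deposited log2 fold change (y axis, log2 scale, bars are the deposited standard error) against distance in Mb from the centre of the block, for the chromosome 4 and chromosome 2 blocks; squares are written copies of multi-copy genes, joined by a line where 1 row names several, and circles are neighbouring rows, orange where over 50% of 50-base stretches are shared. On chromosome 4, 29 of 39 neighbours are positive, and 4933409K07Rik at 0.34 and Fam205a2 at 0.28 lie above all of them.

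From a list of 31 genes in or beside the block, 25 were in the authors' deposited table. Of these, 1, Fam205a2, passed at an unadjusted p under 0.05, against 1.50% of all rows. Of the 23 that are no multi-copy rows, 17 were positive and 6 negative in the authors' deposited table, with a median LFC of 0.05. The positive ones were led by Dctn3, a dynactin subunit gene (0.20, SE 0.11, p = 0.0619), Fam219a (0.19, SE 0.10, p = 0.0598) and Phf24 (0.15, SE 0.09, p = 0.0854) in the authors' deposited table. Cntfr, the receptor gene for ciliary neurotrophic factor, stood at 0.14, Fancg at 0.13, and Vcp, an ATPase gene mutated in some inherited motor neuron disease, at 0.10 in the authors' deposited table. Kif24, Galt, Ubap1, Dnajb5, Pigo, Dnaic1, Unc13b, Stoml2, Arid3c and the interleukin 11 receptor gene Il11ra1 lay between 0.01 and 0.09 in the authors' deposited table. Among the negative ones were Nudt2, Ccl19, Myorg, Rpp25l and Enho, between -0.08 and -0.007 in the authors' deposited table. Il11ra1, of which Il11ra2 is a duplicate, had p = 0.923 in the authors' deposited table.

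Receptor and signalling genes set beside these chemokines and interleukin 11 had no unadjusted p under 0.05, against 1.50% of all rows. At that share, few calls could fall in a list this short. From a list of 16 such genes, 11 were in the authors' deposited table, 5 positive and 6 negative, with a median LFC of -0.04 and a smallest p of 0.0817. That smallest p belonged to the kinase gene Jak2 (-0.16, SE 0.09) in the authors' deposited table. The receptor subunit genes Il6st, Lifr and Osmr lay at -0.10, -0.06 and -0.10, and Il6ra at 0.007 in the authors' deposited table. The kinase genes Jak1 and Tyk2, the transcription factor gene Stat3 and its feedback inhibitor gene Socs3 lay between -0.04 and 0.03 in the authors' deposited table. Ccr10, the receptor for Ccl27, had a mean normalized count of 1.79 and an LFC of -0.05 (SE 0.04, p = 0.193) in the authors' deposited table. The listed genes Ccr7, Ccr4, Ackr4, Cxcr3 and Il11 had no row there. Ccr10 was thus the only chemokine receptor gene of the list with a value.

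The chromosome 2 block, from 175185165 to 176864437 (mm10), holds 6 genes of a cluster of zinc finger genes, which encode DNA-binding proteins, many of them silencers of mobile elements. Of the 6, 5 were negative in the authors' deposited table, and the median LFC was -0.08. Gm14440 had a mean normalized count of 336 and an LFC of -0.22 (SE 0.10, p = 0.0266) in the authors' deposited table, a ratio of 0.857. Gm6710 followed at 569.7, with an LFC of -0.15 (SE 0.09, p = 0.0846) in the authors' deposited table. Gm14308, the most abundant with 1119, is written at 5 places and had an LFC of -0.07 (SE 0.06, p = 0.294) in the authors' deposited table. Zfp967, written at 3 places, had -0.09 with an SE of 0.07 (mean normalized count 231.3), Gm14391 had -0.07 (9.91) and Gm14405 had 0.001 (13.3) in the authors' deposited table.

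Sequences before the start sites show how alike these genes are: Gm14440 at chr2:175275012-175275091 (plus strand), Gm14308 at chr2:176636352-176636431 (minus strand) and Zfp967 at chr2:176520924-176521003 (plus strand), from RefSeq on GRCm38.p6, with differing bases in capitals.
Gm14440: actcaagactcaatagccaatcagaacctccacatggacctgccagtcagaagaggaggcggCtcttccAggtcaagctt
Gm14308: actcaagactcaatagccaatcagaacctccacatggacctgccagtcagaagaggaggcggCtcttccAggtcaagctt
Zfp967: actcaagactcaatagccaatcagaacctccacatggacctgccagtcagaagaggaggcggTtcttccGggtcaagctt
The windows differ at 2 of 80 positions, and Gm14440 shares 98.9% of 267 aligned bases with Zfp967 and 94.6% of 299 with Gm14308. The windows of Gm14440 and Gm14308 end 33 and 32 bases before the RefSeq start sites used. That of Gm14308 lies in part within the RefSeq bounds of the gene. The letters CCAAT, which these windows hold in the stretch agccaatc, were searched on both strands of the RefSeq records of 300 bases around each start site: they occur in 20 of 41 records of 33 multi-copy genes and in 37.41% of all 32851 records. TATAAA occurs in 3 of the 41 and 13.62% of all, and GGGCGG in 15 and 35.66%, likewise on both strands; none of the 3 motifs contains another.

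Of 8 relatives of these genes outside the multi-copy rows, each with at least 20% of shared stretches, 7 were negative, with a median of -0.13 and a range of -0.23 to 0.05 in the authors' deposited table, and 2 had a p under 0.05. Gm14305, which holds 79.4% of the stretches of Gm14308, stood at -0.02, Zfp973 and Gm14327 at -0.08 each and Gm2026 at 0.05 in the authors' deposited table. The lowest were Gm14295 and Gm14326. Gm14295 had an LFC of -0.23 (SE 0.10, p = 0.0258) in the authors' deposited table, and Gm14326 one of -0.22 (SE 0.11, p = 0.0365). The 6 neighbours within 1 Mb of the block that share over 50% of their stretches were all negative, with a median of -0.13 in the authors' deposited table. All of these but Gm14393 are among the 8 relatives above, so the counts overlap. Of 9 neighbours with under 10% shared, 7 were positive, with a median of 0.01 in the authors' deposited table. The GC content of these neighbours differs too: the sharing ones had a median of 40.6%, the others 51.7%, and the 6 block genes 40.1%. Once the trend with GC content had been taken off, the statistic was negative for 5 of the 6 block genes and all 6 sharing neighbours. The part of shared reads in these signs was not tested.

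A block on chromosome 14 near 26 Mb held the most negative of the 48 genes. Plac9b, a copy of a gene for a small secreted protein first found in placenta, is written at chr14:26027704-26042737 and chr14:26167318-26182351. It had a mean normalized count of 31.7 and an LFC of -0.25 (SE 0.10, p = 0.0134) in the authors' deposited table, a ratio of 0.843. Tmem254a, a transmembrane protein gene written at chr14:26063051-26067425 and chr14:26202667-26207041, had 137.9 and an LFC of -0.15 (SE 0.09, p = 0.117) in the authors' deposited table. Duxbl2, a homeobox gene, had 4.17 and an LFC of -0.04 (SE 0.04, p = 0.347) in the authors' deposited table. All 50-base stretches of Plac9b occur in Plac9a and 66.6% of those of Tmem254a in Tmem254b. The sequence before the start site of Plac9b (chr14:26182352-26182431, minus strand, RefSeq on GRCm38.p6) shows this identity, since the same 80 letters stand before Plac9a (chr14:25902972-25903051, minus strand). Those of Plac9a end 78 bases before the RefSeq start site used.
Plac9b: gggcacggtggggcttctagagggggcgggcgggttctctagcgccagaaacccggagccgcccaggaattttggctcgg
Among 13 neighbouring rows within 1 Mb, 6 were positive and 7 negative, with a median of -0.05 in the authors' deposited table.

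A further 7 genes share a chromosome 14 block from 3208493 to 5813737 (mm10), and no p under 0.05 occurred among them, against 1.50% of all rows. They were Gm3383, the most abundant at 51.7 (LFC 0.06, SE 0.10), Gm3264 (0.02), 1700110I01Rik (0.007), Gm3317 (-0.007), Gm10409 (-0.08), D830030K20Rik (-0.08) and Gm3500 (-0.12, SE 0.08, p = 0.149) in the authors' deposited table. This family is the most interwoven: Gm3317 shares at least 20% of its stretches with at least 40 other genes and Gm3264 and Gm3383 with 39 each. No more than 40 were counted for a gene. Gm3383 and Gm3500 share 75.3% of the stretches of Gm3383, and their LFCs of 0.06 and -0.12 in the authors' deposited table differ in sign, with p-values of 0.541 and 0.149.

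The remaining blocks are small. The 3 genes of chromosome 10, the zinc finger gene Zfp433, Gm10778 and the zinc finger gene Zfp781, were all negative, at -0.12, -0.10 and -0.08, with means from 87.9 to 235.1 and an SE of 0.11 each in the authors' deposited table. Their median GC content was 38.4%. On chromosome 17, Rnaset2b, a ribonuclease gene (208), stood at 0.005, Dynlt1f, a dynein light chain gene, at 0.02, and Gm1604b at -0.06 in the authors' deposited table. On chromosome 12, Srp54b, for a subunit of the signal recognition particle, had 1610 and an LFC of -0.05, and Fam177a2 had 332.5 and -0.13 in the authors' deposited table. The immune receptor genes Cd300ld4 and Cd300ld3 of chromosome 11 were close to the lowest counts, at 2.46 and 1.24, with values of 0.005 and -0.02 in the authors' deposited table. On chromosome 7, Gvin1, an interferon-inducible GTPase gene, had 112.3 and an LFC of -0.15 (SE 0.11, p = 0.154), and Gm18853 had 0.03 in the authors' deposited table.

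The 14 genes that stood alone had a median LFC of -0.01 in the authors' deposited table, and none had a p under 0.05, against 1.50% of all rows. Rims1, a scaffold gene of the presynaptic active zone, had the highest mean normalized count of the 48 (2267) and an LFC of 0.08 (SE 0.10, p = 0.424) in the authors' deposited table. Its written copy lies within its own gene on chromosome 1, and 0.0156% of its stretches occur elsewhere, the lowest share of the 45 genes with a transcript. Entpd4, a nucleotidase gene all of whose 50-base stretches occur in Entpd4b, had 1279 and -0.07, with an SE of 0.11, in the authors' deposited table (p = 0.524). DXBay18, 9930111J21Rik2, Gm3448, Gm5512, Gm5801, Gm21119 and Btg3 lay between -0.07 and 0.04, and Rn4.5s at -0.11 with an SE of 0.10, in the authors' deposited table. Btg3 and Gm5643 have their written copy on another chromosome than their reference gene.

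Several of these genes are copies of an abundant gene with its own row, which allows the values to be set side by side. Eno1b had 1058 and an LFC of -0.04 (SE 0.11, p = 0.728) in the authors' deposited table. Eno1, the glycolytic enolase gene with which it shares 75.3% of its stretches, had 4268 and 0.23 with an SE of 0.11 in the authors' deposited table (p = 0.0320). Ubb-ps, a ubiquitin pseudogene, had 714.8 and 0.07 with an SE of 0.10, and Ubb had 17048 and 0.08 with an SE of 0.11 in the authors' deposited table. Srp54a, which shares 92.9% of the stretches of Srp54b, had -0.10 with an SE of 0.07 in the authors' deposited table. For 21 multi-copy genes, a gene outside the 48 with at least 20% of their stretches had a row in the authors' deposited table; 11 of the 21 had the sign of the closest such relative.

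**Figure D3:**
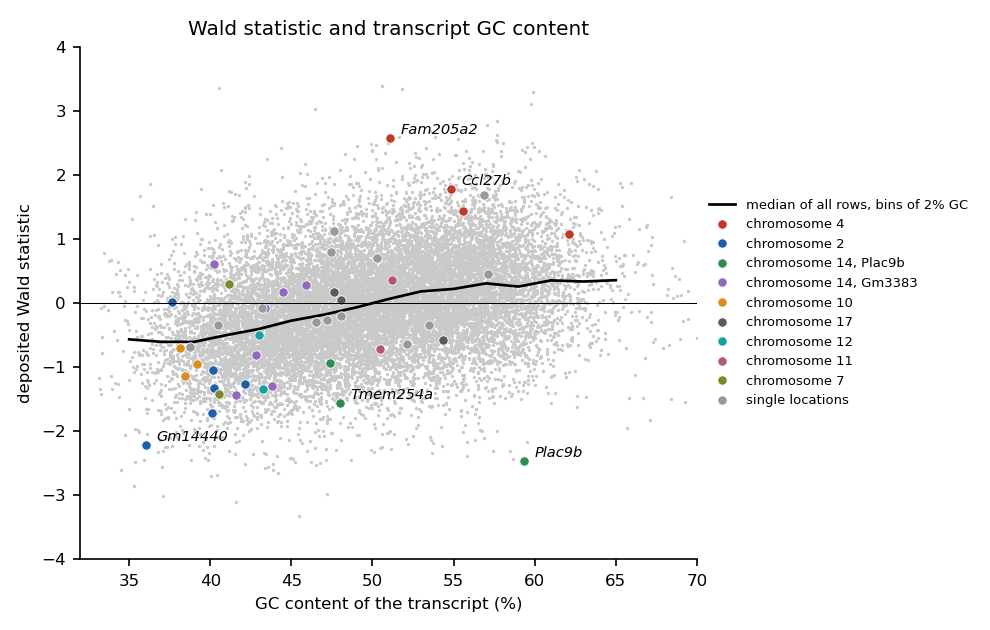
Deposited Wald statistic, the ratio of LFC to SE (y axis), against GC content of the longest transcript in percent (x axis), for all rows (grey) and the multi-copy genes coloured by location; the line is the median of all rows in bins of 2% GC. Fam205a2 and Ccl27b lie above the line, and Gm14440, Tmem254a and Plac9b below it.

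Where the trend of the statistic with GC content was taken off and its spread rescaled, 5 of 43 multi-copy genes had a p under 0.05, against 6.23% of all rows (987 of 15835). They were Plac9b (p = 6.81e-05), Fam205a2 (p = 0.000315), Ccl27b (p = 0.0256), Gm14440 (p = 0.0256) and Tmem254a (p = 0.0371), computed from the authors' deposited table, and the smallest adjusted p among the multi-copy genes was 0.120. Plac9b has a GC content of 59.3%, where most rows are positive, and Fam205a2 one of 51.1%. Of the 4 genes called before, 3 were called again; 4933409K07Rik, like Gm2002 and Rn4.5s, had no matched transcript and could not be adjusted, and Ccl27b and Tmem254a were called in this fit only.

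The deposited standard errors were small for many of these genes. Against the 500 rows nearest in mean normalized count, 15 of 48 multi-copy genes fell in the lowest 10%, as did 1558 of all 15978 rows in the authors' deposited table. Of the 428 rows with over 50% shared stretches, 90 did. Gm14308 and Zfp967 stood at the 0.6th percentile, with standard errors of 0.06 and 0.07 at means of 1119 and 231.3, and Tmem254a at 1.6 in the authors' deposited table. Hba-a2, an alpha globin gene (1183, LFC 0.07, SE 0.04), and Gm5643, which shares 54.0% of its stretches with the splicing regulator gene Hnrnpa1 (1.70, 0.02, SE 0.01), have no p-value in the authors' deposited table. A small standard error is not read as higher precision here. Over all rows in the authors' deposited table, the median standard error was 0.05 at means under 10 and 0.11 at means from 50 to 200. Which property of these rows gives the small standard errors was not tested.

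**Figure D4:**
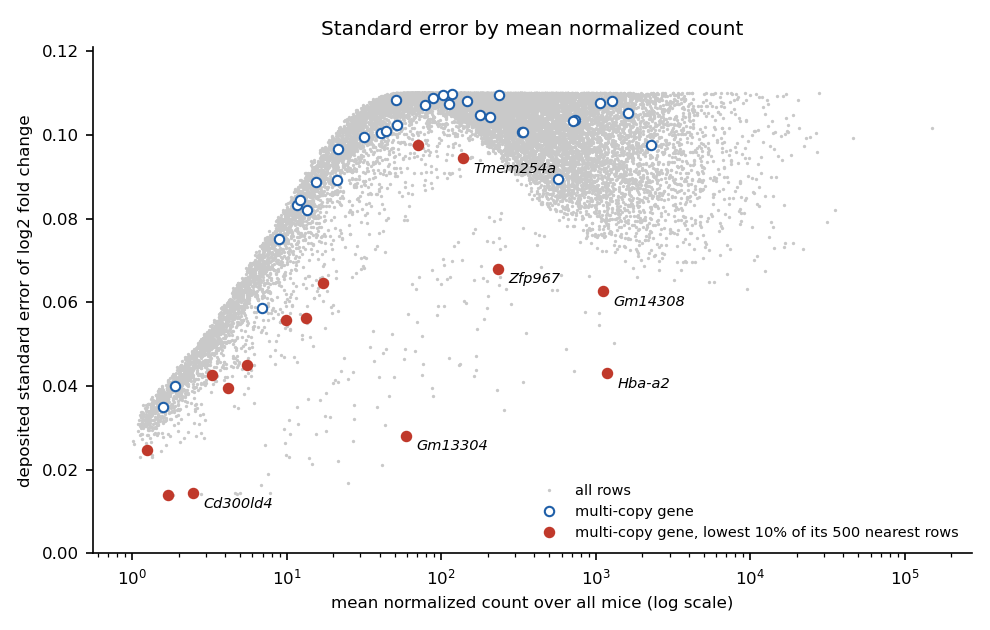
Deposited standard error of the log2 fold change (y axis) against mean normalized count over all mice (x axis, log scale) for all rows (grey) and the 48 multi-copy genes (circles), filled where the standard error is in the lowest 10% of the 500 rows nearest in mean. The filled circles number 15, among them Gm13304, Hba-a2, Gm14308, Zfp967 and Tmem254a.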

How the data were processed

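Brain RNA of 5 C9-BAC and 3 wild-type mice was compared in 1 table of DESeq2 results, which the authors deposited. Trimmomatic, Bowtie2, DESeq, DESeq2 and build mm10 are named per the submitters' processing notes, without versions; the read counter and annotation, like any filters, were not given in the sources used here. Per the file headers, the values are the mean normalized count (a signal, counts divided by size factors and averaged), the log2 fold change with its standard error, the Wald statistic (a score), and the p-value and adjusted p-value of the authors. Recomputed statistics differed from the deposited score by at most 8.27e-07 and p-values by at most 8.83e-10. The depth of each mouse is unknown; the mean normalized counts sum to 9226670.

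Symbols and positions came from RefSeq (GRCm38.p6, the assembly also called mm10) for 15930 rows with GENCODE vM21 as second source, and GC content and 50-base stretches from vM21 transcripts for 15869. Written copy starts are counted from 0 and were raised by 1. The GC trend was fitted by lowess (span 0.3) over all rows, with residuals rescaled by the median absolute deviation and Benjamini-Hochberg adjustment over all rows (Python 3.11.15, statsmodels 0.14.6, SciPy 1.17.1). The fit was first tried on simulated data with a linear trend and large shifts. That trial does not show how accurate the p-values of smaller shifts are. Named were all chromosome 4 block genes, genes with p under 0.05, the 10 of smallest p, the 8 of highest mean, each location group, genes without a p and the context genes in the table; a gene that this rule names is not reported here. The members and lists were chosen with earlier results of these data known. Alternatives were a minimum mean of 10, histone genes kept, 1 row per symbol stem or family, p under 0.01, the GC-adjusted statistic and wider block bounds.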

Additional observations from a re-analysis of the deposited data

How the results depend on the processing

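With an unadjusted p under 0.01 in place of 0.05, the count of multi-copy genes called was 2, against 4. These were 4933409K07Rik and Fam205a2 of chromosome 4. The share over all rows was 0.157% at 0.01 and 1.50% at 0.05. With the GC trend taken off and the spread rescaled, 5 of 43 genes were called at p under 0.05. The share over all rows rose to 6.23% in that fit. Of the 5 genes, 3 were among the main 4. There 4933409K07Rik had no value, and Ccl27b and Tmem254a were added. Over all 21 alternative values other than that at p under 0.01, the count at p under 0.05 was 4 or 5, no multi-copy gene had an adjusted p of 0.05 or less, the median log2 fold change of the multi-copy genes ran between -0.05 and -0.02, the positive share between 37.8% and 42.5%, and the median of the chromosome 4 block was 0.14, or 0.19 with a minimum mean normalized count of 10. Counting 1 row per family that shares 20% of 50-base stretches was chosen after seeing the data. No paired analysis was possible because the genotypes share no replicate numbers and the table holds 1 deposited value per gene. Leaving out single mice was not possible for the same reason, so whether 1 mouse carries a value such as that of 4933409K07Rik was not tested. Standard errors, p-values and the size of fold changes of rows with shared reads depend on a counting step that these sources do not describe.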
